A study of Mus musculus with 6 samples.

Results

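The genes described here are 10 that hold the cells of the outer skin together or build and shed its horny layer: the desmosomal cadherins Dsg1a, Dsg1b, Dsg3, Dsc1 and Dsc3, the corneodesmosome gene Cdsn, the peptidases Klk5 and Klk7, and the transglutaminases Tgm1 and Tgm3. They were chosen by gene name from the 55291 genes of the tables, and all 10 passed the filter on low counts that left 19971 genes for testing. In the skin of tight skin (TSK) mice, RNA of Dsc1, Cdsn, Klk5, Klk7 and Tgm1 was 2.19-fold to 3.02-fold higher than in wild-type (WT) skin, while Dsg1a, Dsg1b, Dsg3, Dsc3 and Tgm3 did not pass the test. No member was called lower.

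Desmosomes are junctions that rivet neighbouring keratinocytes to each other. Desmogleins (Dsg) and desmocollins (Dsc) reach across the gap between the cells, and plakoglobin, plakophilins and desmoplakin tie them to keratin filaments inside. Dsg3 and Dsc3 are known mainly from the lower layers of the epidermis and Dsg1 and Dsc1 from the upper layers. As keratinocytes become corneocytes, corneodesmosin coats the junction and turns it into a corneodesmosome, transglutaminases cross-link proteins into the cornified envelope, and kallikrein-related peptidases later cut the corneodesmosomes so that cells are shed.

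Whole dorsal skin of 3 TSK mice and 3 WT littermates, all C57BL/6, aged 6 to 8 weeks by the labels and untreated, gave 1 bulk RNA library a mouse. In the TSK line a stretch of Fbn1, which encodes the microfibril protein fibrillin 1, is duplicated within the gene, and only heterozygotes are viable. The mutation is present in every cell of the mouse and is not limited to keratinocytes. In whole skin, more or fewer cells of a type cannot be told apart from more or less RNA per cell.

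Libraries held 17561453 to 19219814 counts. Fbn1 was at 262 to 289 CPM (counts scaled to the size of a library) in WT and 1538 to 2284 CPM in TSK, in the direction of the labels. The labels give female mice, but RNA of 4 genes of the Y chromosome (Ddx3y, Eif2s3y, Kdm5d and Uty) was found in all 6 libraries at 27.0 to 72.8 CPM, and the methods of the study give males. RNA of Xist, a gene of the X chromosome, was at 2.57 to 4.58 CPM in the 6 libraries. The groups overlapped in CPM in each of these genes. Of 12 lists of cell type markers, 8 had a summed CPM that was higher in every TSK library, 1 was lower and 3 overlapped. After TMM scaling 5 were higher, 1 was lower and 6 overlapped, among them the suprabasal, endothelial and T cell lists. The sums of basal keratinocyte markers were 3979 to 7717 CPM in WT and 3849 to 6118 in TSK. Suprabasal markers summed to 1275 to 2016 against 2145 to 3644 CPM, and granular layer markers to 472 to 805 against 1094 to 1653 CPM. Skeletal muscle, which lies under the skin, was the list that was lower, at 166018 to 241299 against 143118 to 164232 CPM. Hair follicle markers overlapped in sum (185 to 289 against 218 to 317 CPM, with 11 of 12 genes measured, and all genes of the other lists), as did sebaceous gland markers (9.04 to 50.1 against 35.3 to 51.0). Fibroblast (6365 to 9667 against 20451 to 47443), adipocyte (126 to 183 against 445 to 2498), endothelial (154 to 182 against 216 to 426), macrophage (91.9 to 161 against 169 to 464), melanocyte (5.47 to 7.79 against 10.7 to 17.5) and T cell markers (8.71 to 14.1 against 15.1 to 18.2 CPM) were higher in CPM. By gene, 3 of 9 tested hair follicle markers were called higher (edgeR adjusted p below 0.05), with a median log2 fold change of 1.48. Over all tested genes 2.71% were called higher. Of 6 adipocyte markers, 3 were called higher, with a median of 2.92. Without WT 3 both lists had 0 calls, and without WT 2 they had 1 and 0. Of 13 muscle markers, edgeR called 0. DESeq2 called 10 lower and 1 higher, and 1.87% of all genes lower. No measured marker of the 12 lists was at 0 in all libraries, and the part of these shifts in the results below was not tested.

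The members differed widely in level in WT skin. Expressed as CPM per kb of annotated exon, the order of the WT means was Dsc3 (44.0 ± 16.9), Dsg1a (33.7 ± 8.82), Dsg3 (22.9 ± 7.60), Cdsn (16.1 ± 6.06), Klk7 (12.5 ± 2.74), Dsg1b (7.78 ± 3.07), Dsc1 (4.40 ± 1.12), Klk5 (3.67 ± 0.947), Tgm1 (2.26 ± 0.283) and Tgm3 (1.95 ± 0.912; SD, n = 3). Between neighbours in this order, the ranges of the 3 WT libraries overlapped in 8 of 9 pairs, and Klk5 lay above Tgm1 without overlap. In TSK skin the level per kb was 59.8 ± 13.2 for Dsc3, 57.1 ± 19.0 for Dsg1a, 52.8 ± 11.7 for Cdsn, 33.1 ± 6.63 for Klk7 and 22.6 ± 3.51 for Dsg3. Cdsn and Klk7 thus stood above Dsg3 in TSK and below it in WT. Lower in the TSK order came Dsc1 (13.7 ± 3.78), Klk5 (13.3 ± 2.29), Dsg1b (12.6 ± 3.45), Tgm1 (5.94 ± 1.62) and Tgm3 (1.501 ± 0.953 CPM per kb), and 4 of 9 neighbouring pairs overlapped there.

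**Figure D1:**
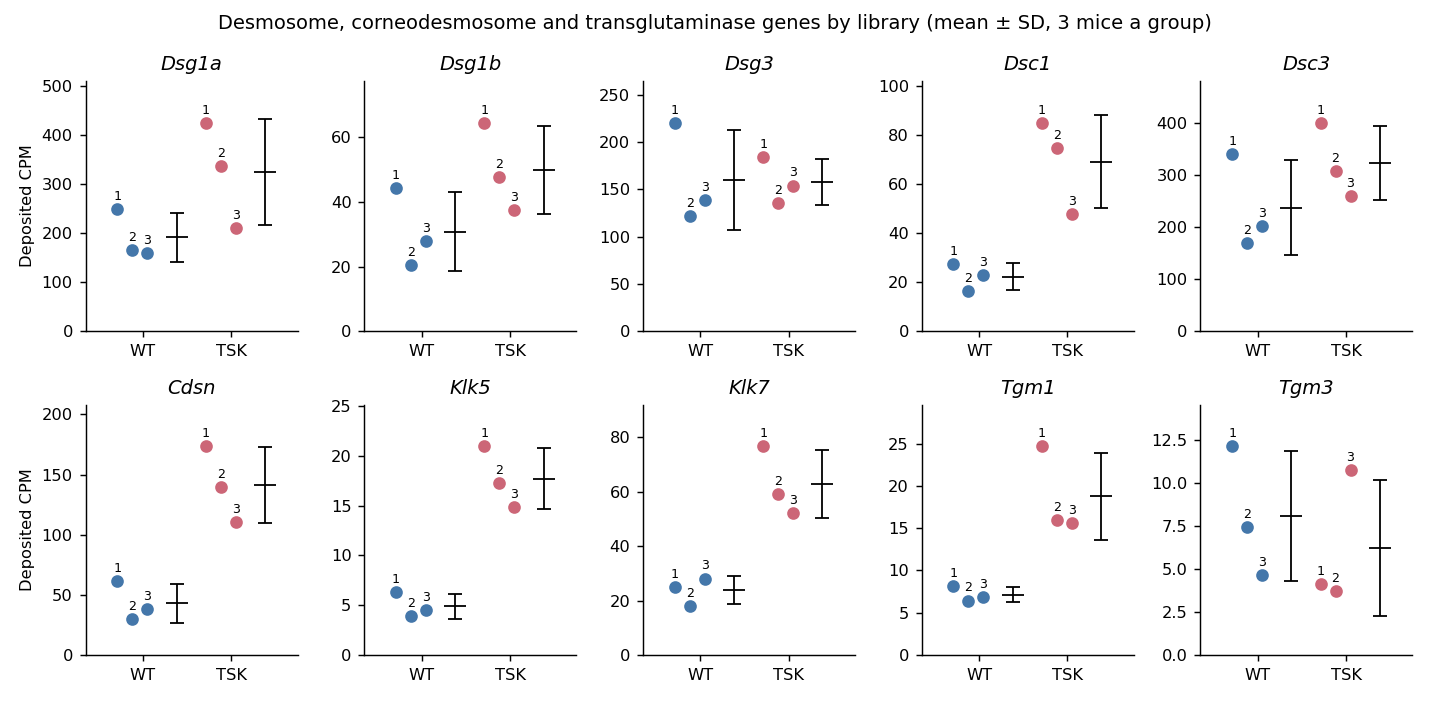
Deposited CPM of the 10 genes (vertical axes, linear, from 0) in each library of WT and TSK skin; points are mice numbered by replicate, and the bar beside them is the mean ± SD. The points of Dsc1, Cdsn, Klk5, Klk7 and Tgm1 are all higher in TSK than in WT, and those of the other 5 genes overlap.

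Klk7 and Klk5 are on the plus strand of chromosome 7 (GRCm38), 25.6 kb apart, with Klk6 between them. Upstream sequences from RefSeq (GRCm38.p6) were matched for 5 of the 10 genes, and the 3 whose windows overlap no annotated exon are shown. These are Cdsn and Klk7, which rose, and Tgm3, which did not pass the test. Each is the 250 bases before the RefSeq start site, on the plus strand. Capitals mark CCACCC on either strand (GGGTGG when read on the other), the core bound by Krüppel-like factors, a family that includes Klf4.
Cdsn, chr17:35551878-35552127: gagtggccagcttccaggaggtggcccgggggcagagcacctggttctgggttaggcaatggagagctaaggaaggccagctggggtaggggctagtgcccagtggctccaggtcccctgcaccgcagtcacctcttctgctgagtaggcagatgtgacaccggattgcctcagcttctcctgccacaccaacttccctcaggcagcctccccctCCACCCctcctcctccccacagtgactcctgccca
Klk7, chr7:43811044-43811293: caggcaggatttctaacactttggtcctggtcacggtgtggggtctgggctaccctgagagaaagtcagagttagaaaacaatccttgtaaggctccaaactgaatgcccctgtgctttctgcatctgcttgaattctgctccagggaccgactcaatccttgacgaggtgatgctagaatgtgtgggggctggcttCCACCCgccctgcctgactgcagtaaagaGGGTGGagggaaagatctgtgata
Tgm3, chr2:130012090-130012339: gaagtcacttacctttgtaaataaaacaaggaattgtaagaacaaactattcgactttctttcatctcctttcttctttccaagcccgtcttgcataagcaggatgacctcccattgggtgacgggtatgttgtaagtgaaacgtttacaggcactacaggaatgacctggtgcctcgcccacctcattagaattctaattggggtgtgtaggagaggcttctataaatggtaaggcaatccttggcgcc

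The CCACCC core began 35 bases before the start in Cdsn and 53 and 24 bases before it in Klk7. It was also found once in the window of Klk5 and once in each window of the 2 start sites of Tgm1, and it was not found in that of Tgm3. Of 32851 windows of the same length, 28.1% held it. The other motifs searched on both strands were TGANTCA (the AP-1 site, in 6.75% of windows), AACNNGTT (grainyhead-like factors, 3.64%), TTGCNNAA (C/EBP, 9.56%) and TATAAA (the TATA box, 12.4%). TTGCNNAA was found in the windows of Cdsn and Tgm3, and TATAAA in that of Tgm3, beginning 28 bases before the start. The other 2 motifs were found in none of these windows. These are matches of letters only.

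Of the 10 genes, 5 rose and 0 fell at an adjusted p below 0.05 (edgeR's quasi-likelihood test, adjusted over all 19971 genes), where 2.71% of all tested genes were called higher and 0.681% lower. With the p left unadjusted the members' counts were the same, and 3998 of the 19971 genes were below 0.05 in either direction. They were also the same with DESeq2, where 5.2% of all genes were called higher and 1.87% lower. The median log2 fold change was 0.82 over the 10 genes (0.54 without TSK 1) and -0.03 over all tested genes. The same 5 genes were those whose TSK libraries all lay above every WT library, both in deposited CPM, where 29.1% of tested genes did so, and after TMM scaling (a correction of library size for a few abundant genes), where 14.1% did. The calls depended on the WT libraries: without WT 2 only Klk5 was called, where 226 of 20656 genes were called higher and 61 lower. Without WT 3 edgeR called 0 of 10, where 45 of 20665 genes were called higher and 15 lower. That fit had 5 of 10 members and 2883 of all genes below 0.05 before adjustment. The log2 fold changes of the 5 genes were 1.04 (Klk7) to 1.52 (Klk5) without WT 2 and 1.13 (Tgm1) to 1.57 (Klk5) without WT 3. With all libraries they were 1.13 to 1.60. Over all genes, 542 were called higher and 136 lower with TMM scaling, against 1685 and 93 with library size only, where the median of all genes was 0.25.

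**Figure D2:**
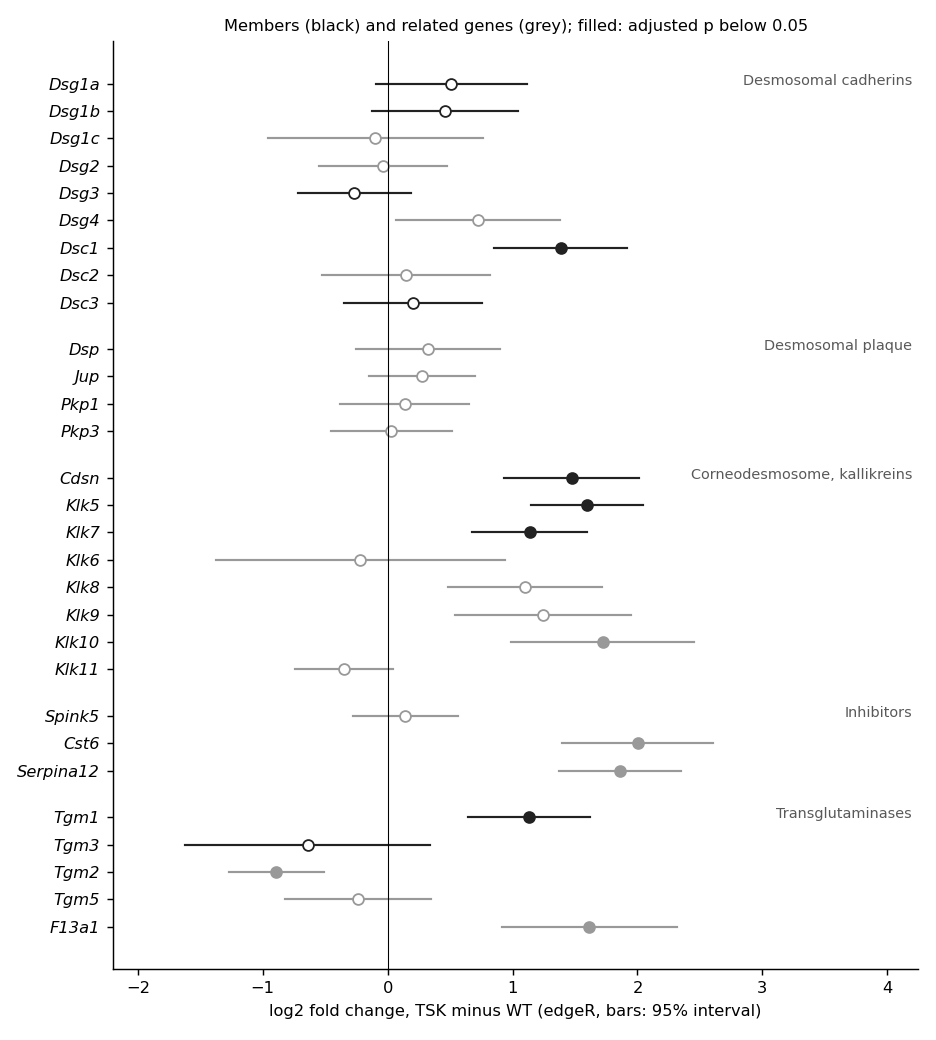
Log2 fold changes (horizontal axis, TSK minus WT, TMM scaling) with 95% intervals of the 10 genes in black and of related genes in grey; filled points had an adjusted p below 0.05 over all tested genes. The 5 filled black points lie between 1.13 and 1.60, and the intervals of the 5 open black points include 0.

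All 5 desmosomal cadherin members lie in a cluster of 587 kb on chromosome 18 (GRCm38, 19960930 to 20547459), where Dsc3 and Dsc1 are on the minus strand and Dsg1a, Dsg1b and Dsg3 on the plus strand. Of these 5 members, Dsc1 passed the test. Dsc1, a desmocollin of the upper epidermal layers (20084184 to 20114871), was at 27.6, 16.3 and 22.8 CPM in WT 1 to 3 and at 84.9, 74.5 and 47.9 CPM in TSK 1 to 3. The lowest TSK library was above the highest WT library. The means were 22.2 ± 5.63 and 69.1 ± 19.1 CPM (SD, n = 3), and the log2 fold change was 1.38 (95% interval 0.85 to 1.91, SE 0.23), with an adjusted p of 0.0202 in edgeR. The adjusted p was 0.0623 without WT 2 and 0.0915 without WT 3.

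Dsc3, the desmocollin of the lower layers and the partner of Dsc1 in the cluster (19960930 to 20002351), was at 341, 169 and 203 CPM in WT and at 401, 308 and 260 CPM in TSK. WT 1 was above TSK 2 and TSK 3, so the groups overlapped. Its log2 fold change was 0.20 (95% interval -0.35 to 0.76, edgeR adjusted p = 0.694), and with 1 library left out it ranged from -0.01 (without TSK 1) to 0.47 (without WT 1). It was 0.44 with library size only, 0.48 in limma-trend on log2(CPM + 1) and 0.85 with Krt5 and Krt14 scaling, and not called. The median of all genes was 0.25, 0.20 and 0.64 in these fits. The ratio of Dsc1 to Dsc3 counts within a library does not depend on how libraries are scaled. It was 0.0807, 0.0966 and 0.112 in WT and 0.212, 0.242 and 0.184 in TSK. Every TSK library was higher than every WT library, with a log2 difference of 1.14 (exact permutation test, two-sided, p = 0.1, the lowest value possible with 3 mice a group, adjusted p = 0.12 over 6 ratios).

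Dsg1a and Dsg1b are 2 of the 3 mouse copies of desmoglein 1, the desmoglein of the upper layers and the target of autoantibodies in pemphigus foliaceus. Dsg1a (20310811 to 20343350) was at 250, 165 and 160 CPM in WT and at 426, 337 and 211 CPM in TSK. Only TSK 3 lay within the WT range. The log2 fold change came to 0.51 (95% interval -0.10 to 1.12, SE 0.27, adjusted p = 0.329 by edgeR) and was 0.23 without TSK 1. Dsg1b (20376729 to 20410196) was at 44.2, 20.4 and 27.9 CPM in WT and at 64.6, 47.7 and 37.5 CPM in TSK. In CPM, again TSK 3 alone lay within the WT range. After TMM scaling TSK 2 (42.8) did so too, with WT at 24.8 to 43.2. The log2 fold change of Dsg1b came to 0.46 (SE 0.26, adjusted p = 0.368 by edgeR). It was 0.29 without WT 2, 0.20 without TSK 1 and 0.72 without WT 1.

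The split of reads between the Dsg1 copies is uncertain. Of the 50-base words of the annotated Dsg1b transcript, 45.5% also occur in Dsg1a and 25.0% in Dsg1c, and reads were 50 bases long. Dsg1a held 84.6% to 88.7% of all Dsg1 counts of a library, Dsg1b 10.97% to 15.1% and Dsg1c at most 0.649%. Summed over the copies, Dsg1 was at 295, 186 and 189 CPM in WT and at 492, 386 and 249 CPM in TSK. The summed log2 fold change came to 0.50 (SE 0.26, adjusted p = 0.334 by edgeR), and that of Dsg1c alone was -0.10 (adjusted p = 0.921 by edgeR). Of the other members, shared words made up 4.18% of Tgm1, all with an opposite-strand gene that held at most 2 counts in a library, and 0.116% of Dsg3.

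Dsg3, the desmoglein of the basal and lower layers and the main target in pemphigus vulgaris (20510274 to 20547459), was at 220, 121 and 138 CPM in WT and at 184, 136 and 154 CPM in TSK. In CPM the TSK values lay inside the WT range. After TMM scaling TSK 2 (122) and TSK 3 (136) were below the lowest WT library (147). The log2 fold change was -0.27 (95% interval -0.71 to 0.18, edgeR adjusted p = 0.504); it was 0.39 when libraries were scaled to Krt5 plus Krt14, where the median of all genes was 0.64, and 0.02 in limma-trend on CPM, where the median of all genes was 0.20 to 0.25. It was -0.05 without WT 1, -0.16 without TSK 2 and -0.42 without TSK 1. The ratio of Dsg1a plus Dsg1b to Dsg3 was 1.33, 1.53 and 1.36 in WT and 2.67, 2.84 and 1.61 in TSK. The groups did not overlap, although TSK 3 came close to WT 2. The log2 difference was 0.71 (exact permutation test, two-sided, p = 0.1, adjusted p = 0.12).

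Of the 13 other desmosome genes, 0 passed the edgeR test (1, Dsg4, at an unadjusted p below 0.05, and 0 by DESeq2), and their median log2 fold change was 0.13 (-0.04 without TSK 1, 0.02 without WT 2, 0.28 without WT 1 and 0.38 with library size only). Without WT 1, Dsg4 was called higher (1.13 on the log2 scale, edgeR adjusted p = 0.0372). Desmoplakin (Dsp), which anchors keratin filaments, was at 942 to 1645 CPM in WT and 1542 to 2269 CPM in TSK, with a log2 fold change of 0.32 (edgeR adjusted p = 0.529). The plaque genes Jup (plakoglobin) and Pkp1 (plakophilin 1) had log2 fold changes of 0.28 and 0.13, and the further cadherins Dsg2, Dsc2 and Dsg4 of -0.04, 0.14 and 0.72. Of 15 adherens and tight junction genes, 1 rose, with a median of 0.22 (0.11 without TSK 1, 0.14 without WT 2 and 0.38 without WT 1). That median was 0.49 with library size only and 0.88 with Krt5 and Krt14 scaling, where that of all genes was 0.25 and 0.64. Cldn4, a claudin of tight junctions, was the gene that rose, with a log2 fold change of 1.49 (edgeR adjusted p = 0.0148).

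Cdsn encodes corneodesmosin, a secreted adhesive protein of the upper epidermis, and lies on chromosome 17 (35552128 to 35557180, plus strand). It was at 61.2, 30.03 and 37.9 CPM in WT and at 173, 140 and 111 CPM in TSK. The groups were far apart, with the lowest TSK mouse well above WT 1. The means were 43.1 ± 16.2 and 141 ± 31.4 CPM. The log2 fold change after TMM scaling was 1.48 (SE 0.24, adjusted p = 0.0187 by edgeR). The adjusted p was 0.0544 without WT 2 and 0.0993 without WT 3.

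To set Cdsn against the keratin of the suprabasal layers, its counts were divided by those of Krt10. The ratio was 0.0769, 0.0578 and 0.0540 in WT and 0.109, 0.118 and 0.128 in TSK. The TSK libraries were all higher, with a 1.90-fold difference between geometric means (log2 difference 0.92, exact permutation test, two-sided, p = 0.1, adjusted p = 0.12). Krt10 itself had a log2 fold change of 0.60 (edgeR adjusted p = 0.246), Krt1 of -0.23, and the basal keratins Krt5 and Krt14 of -0.60 and -0.61, none of them called. Of the marker lists, suprabasal genes had 1 of 5 called higher (2 by DESeq2), granular layer genes 1 of 6 (2 by DESeq2) and basal genes 0 of 6 (1 lower at an unadjusted p below 0.05 in edgeR and 0 by DESeq2). Without WT 3 each of these lists had 0 calls, and without WT 1 the granular layer list had 3 (Lor, Flg and Flg2). The suprabasal median was 0.60 (0.32 without TSK 1). The granular layer median was 0.58 (0.32 without TSK 1, 0.34 without WT 2 and 0.90 without WT 1), and the basal median was -0.43 (-0.65 without TSK 1 and -0.22 without WT 1).

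Klk5 encodes a trypsin-like peptidase that cuts corneodesmosin and activates Klk7 (chromosome 7, 43841971 to 43851181). It was at 6.32, 3.89 and 4.51 CPM in WT and at 21.0, 17.3 and 14.9 CPM in TSK. The lowest TSK library was far above the highest WT library. The log2 fold change came to 1.60 (95% interval 1.15 to 2.04, SE 0.20, adjusted p = 0.00889 by edgeR). Klk5 was the only member past the thresholds of the study (fold above 2.5 and adjusted p below 0.01) in edgeR, where 0.29% of all genes passed, while DESeq2 passed Dsc1, Cdsn and Klk5, and 1.74% of all genes. The adjusted p of Klk5 was 0.0561 without WT 3.

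Klk7 encodes a chymotrypsin-like peptidase that also cuts corneodesmosin (43811294 to 43816359). It was at 25.1, 17.99 and 28.1 CPM in WT and at 76.7, 59.3 and 52.2 CPM in TSK, and the groups were apart. The means were 23.7 ± 5.19 and 62.7 ± 12.6 CPM. The log2 fold change after TMM scaling was 1.14 (SE 0.20, adjusted p = 0.0241 by edgeR). The adjusted p was 0.0712 without WT 2 and 0.0656 without WT 3. The ratio of Klk7 to Klk5 counts was 3.97, 4.63 and 6.23 in WT and 3.66, 3.43 and 3.51 in TSK. It was lower in every TSK mouse, and WT 3 was the highest (4.94 ± 1.16 against 3.53 ± 0.115, log2 difference -0.46, or -0.28 without WT 3, exact permutation test, two-sided, p = 0.1, adjusted p = 0.12).

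Spink5 encodes LEKTI, the inhibitor of both peptidases that is lost in Netherton syndrome. Spink5 was at 298, 194 and 168 CPM in WT and at 300, 305 and 263 CPM in TSK. WT 1 was inside the TSK range, and the log2 fold change was 0.14 (edgeR adjusted p = 0.725). The ratio of Klk7 to Spink5 was 0.0844, 0.0929 and 0.167 in WT and 0.255, 0.195 and 0.199 in TSK. It was higher in each TSK mouse, with WT 3 closest to the TSK values (log2 difference 0.97, exact permutation test, two-sided, p = 0.1, adjusted p = 0.12).

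**Figure D3:**
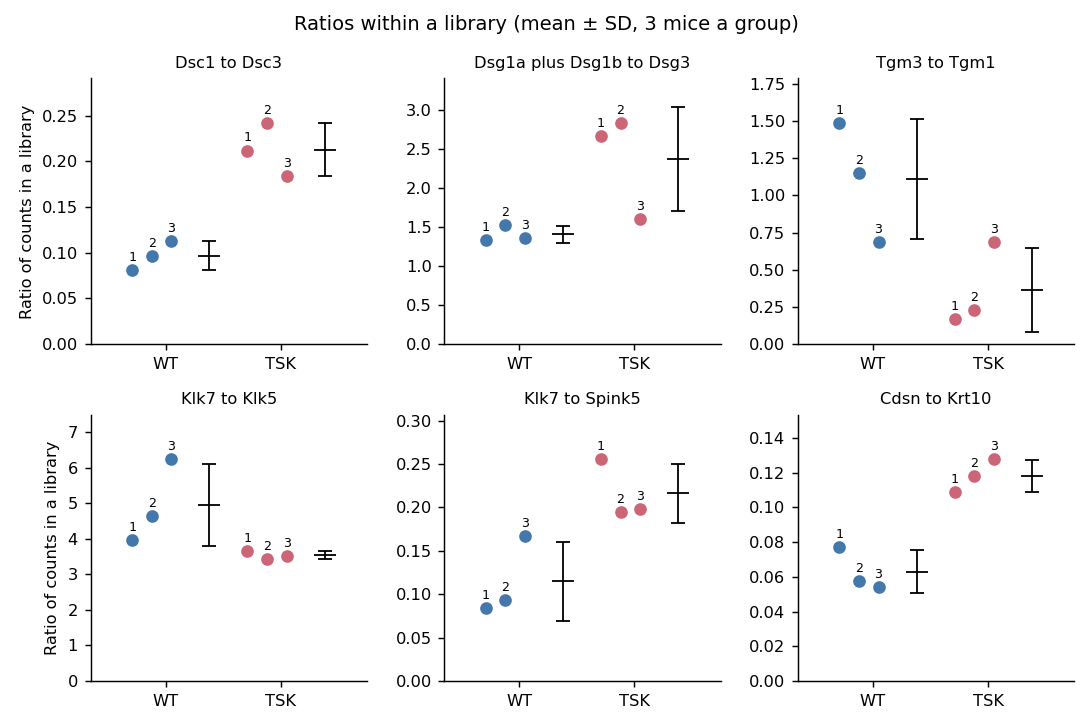
Ratios of estimated counts of gene pairs within each library (vertical axes, linear, from 0) in WT and TSK skin; points are mice numbered by replicate, and the bar beside them is the mean ± SD. The groups do not overlap in 5 of the 6 ratios, and in the ratio of Tgm3 to Tgm1 the third TSK mouse lies at the level of the third WT mouse.

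Of 11 other kallikrein-related peptidases, 5 were tested and 1 rose. Their median was 1.10 on the log2 scale over these 5 genes, and 0.89 (without WT 2) to 1.26 (without WT 3) over the same genes with 1 library left out. Where more genes passed the filter it was lower, at 0.53 over 9 genes in DESeq2 and, over 6 genes, 0.52 without WT 1, 0.44 without TSK 1 and 0.81 without WT 3. The gene that rose was Klk10 (1.72, edgeR adjusted p = 0.0294). With 1 library left out, Klk10 was called only without WT 1 (edgeR adjusted p = 0.0279) and without TSK 2 (0.0323). Klk8, a peptidase of the upper epidermis, had a log2 fold change of 1.10 (adjusted p = 0.0668 by edgeR) and Klk6 of -0.22. Of 13 epidermal protease inhibitors, 7 were tested, 3 rose and 1 fell. Cst6, the cysteine protease inhibitor cystatin M/E, rose by 2.001 on the log2 scale, Serpina12 (vaspin, an inhibitor of Klk7) by 1.86 and Wfdc5 by 1.60, and Serpinb6a fell by 1.26 (edgeR adjusted p = 0.0110, 0.00847, 0.0385 and 0.0200). Of 13 other proteases of the upper epidermis, 11 were tested and 1 rose: Asprv1, an aspartic protease that takes part in the processing of profilaggrin (log2 fold change 1.49, edgeR adjusted p = 0.0209). The median of the inhibitors was 0.32 (0.15 without TSK 1, 0.21 without WT 2 and 0.54 without WT 1). That of the other proteases was 0.41 (0.29 to 0.48 with 1 library left out). With library size only these medians were 0.56 and 0.68, where that of all genes was 0.25. With Krt5 and Krt14 scaling they were 0.99 and 1.04, where that of all genes was 0.64.

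Tgm1 encodes the membrane-anchored transglutaminase that cross-links the cornified envelope and is mutated in lamellar ichthyosis (chromosome 14, 55700009 to 55713926, minus strand). It was at 8.14, 6.44 and 6.82 CPM in WT and at 24.7, 16.02 and 15.6 CPM in TSK. The groups were apart, and TSK 1 was highest. The means were 7.13 ± 0.894 and 18.8 ± 5.12 CPM. The log2 fold change after TMM scaling was 1.13 (SE 0.21, adjusted p = 0.0299 by edgeR). The adjusted p was 0.0875 without WT 2 and 0.125 without WT 3.

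Tgm3 encodes a transglutaminase of the hair follicle and upper epidermis that is activated by proteolysis (chromosome 2, 130012349 to 130050399, plus strand). It was at 12.1, 7.41 and 4.67 CPM in WT and at 4.15, 3.72 and 10.8 CPM in TSK. TSK 1 and TSK 2 were below every WT mouse, and TSK 3 was above WT 2 and WT 3. The log2 fold change came to -0.64 (95% interval -1.62 to 0.34, SE 0.43, adjusted p = 0.456 by edgeR), -1.28 without TSK 3 (adjusted p = 0.119 by edgeR), -0.33 without WT 1 (adjusted p = 0.735), -0.37 without TSK 2 and 0.12 when scaled to Krt5 plus Krt14. The ratio of Tgm3 to Tgm1 was 1.49, 1.15 and 0.685 in WT and 0.168, 0.232 and 0.687 in TSK, so the groups overlapped by a narrow margin (log2 difference -1.82, exact permutation test, two-sided, p = 0.2, adjusted p = 0.20).

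The other transglutaminase genes went different ways. Of 7, 6 were tested, 1 rose and 1 fell, with a median of -0.13 (0.12 without WT 1, -0.31 without WT 3 and 0.13 with library size only). F13a1, the A subunit of coagulation factor XIII, had a log2 fold change of 1.61 (edgeR adjusted p = 0.0299), and the macrophage marker sum stood at 91.9 to 161 CPM in WT and 169 to 464 CPM in TSK. Tgm2, the widely expressed tissue transglutaminase, fell by 0.89 on the log2 scale (edgeR adjusted p = 0.0291), and Tgm5, another epidermal transglutaminase, had a value of -0.24. Of 20 transglutaminase substrates of the cornified envelope, 17 were tested and 6 rose, with a median of 0.59 (over the same genes, 0.39 without WT 2 and 0.92 without WT 1). Lor (loricrin, the main protein of the envelope) rose by 1.78 on the log2 scale, Csta1 (a cystatin A) by 1.45, Crct1 by 1.33 and Lce1m (a late cornified envelope gene) by 1.16, with adjusted p of 0.00913, 0.0182, 0.0234 and 0.0304 by edgeR. The granular layer marker sum was 472 to 805 CPM in WT and 1094 to 1653 CPM in TSK. Lor is also a granular layer marker.

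Of 22 keratinocyte transcription factors, 2 rose, with a median of 0.02 (-0.06 without TSK 1 and 0.14 without WT 1). It was 0.27 with library size only and 0.65 with Krt5 and Krt14 scaling, where the median of all genes was 0.25 and 0.64. Prdm1, a repressor found in differentiating keratinocytes, rose by 1.52 on the log2 scale (edgeR adjusted p = 0.00847) and Cebpa, which adipocytes also express, by 1.43 (edgeR adjusted p = 0.0351). Adipocyte markers summed to 126 to 183 CPM in WT and 445 to 2498 CPM in TSK. Klf4, a factor of barrier formation, had a log2 fold change of 0.60 (edgeR adjusted p = 0.0561), Grhl1 of 0.43 and Trp63, the factor of basal keratinocytes, of -0.27. In the 8 lists of related genes, 15 calls were higher and 2 lower with all libraries, 6 and 0 without WT 2, and 1 and 0 without WT 3. Without WT 1, 8 cornified envelope substrates were called higher against 6, and 4 transcription factors against 2. Without TSK 1, 3 substrates and 1 transcription factor were. Over all genes, 713 were called higher without WT 1 and 433 without TSK 1.

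The members also varied within a group. WT 1 was the highest WT library for 9 of 10 genes, all but Klk7, and TSK 1 the highest TSK library for 9 of 10, all but Tgm3. TSK 3 was the lowest TSK library for 8 of 10, all but Dsg3 and Tgm3. Across the 6 libraries, the log2 levels of the 5 genes that rose had pairwise Pearson r of 0.94 to 0.99 in 10 pairs. With them, Dsg1a had r of 0.68 to 0.80, Dsg1b of 0.72 to 0.82 and Dsc3 of 0.50 to 0.66. Dsg3 had r of -0.33 to -0.19 and Tgm3 of -0.72 to -0.56 with them. These libraries share a genotype difference, so the values are a description. Of 12017 genes with a mean of at least 5 CPM, those most like Cdsn were Crct1 (r = 0.998), Kprp (0.996) and Ly6g6c (0.995). Those most like Dsc3 were Nsd1 (0.996), Cdh1 (0.988), which encodes E-cadherin, and Erbb3 (0.987), and those most like Tgm3 were Cars2 (0.996), Pms2 (0.992) and Slc38a6 (0.990).

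**Figure D4:**
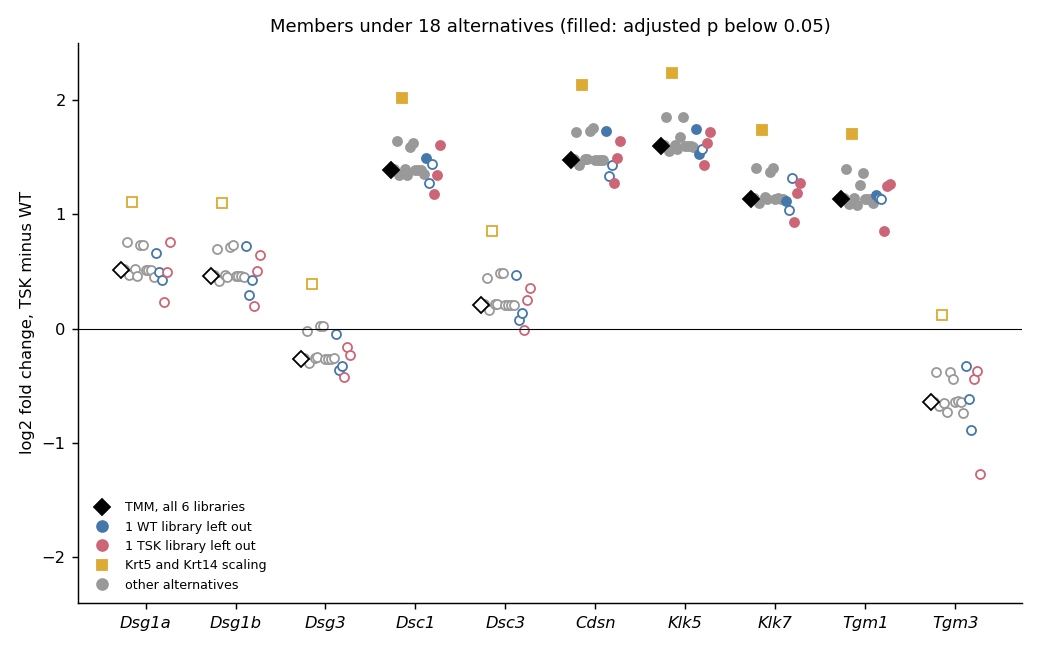
Log2 fold changes of the 10 genes (vertical axis, TSK minus WT) with all libraries and TMM scaling and under 18 alternative settings; filled points had an adjusted p below 0.05. Dsc1, Cdsn, Klk5, Klk7 and Tgm1 stay above 0 in every setting, with values from 0.85 to 2.23, while Dsg3, Dsc3 and Tgm3 have points on both sides of 0.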

How the data were processed

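Skin RNA of 6 mice, grouped by the genotype in the labels, was analysed from 2 tables. The first, as deposited by the authors, holds estimated counts per gene from Partek Flow: 43.3% to 45.4% of non-zero values were whole within 0.001, so they were rounded to whole numbers, although raw counts had been planned for. The second holds CPM, which the authors scaled to library size. The authors depleted ribosomal RNA, prepared stranded total RNA libraries, sequenced single-end reads of 50 bases, aligned them with STAR to mm10 and counted genes in Partek Flow 11.0 with an Ensembl annotation. Gene ends and exon lengths were taken from GENCODE M21 (GRCm38).

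Genes were kept with filterByExpr and tested with edgeR 4.0.16 (quasi-likelihood test, TMM scaling, R 4.3.3), with Benjamini-Hochberg adjustment over 19971 genes. SEs were computed from the fold change and F statistic. DESeq2 1.42.0 and limma 3.58.1 were alternatives. Ratios within libraries were tested by exact permutation. Each library came from its own mouse; which mice shared a litter or a preparation batch is not given in the sources used here. On counts simulated for this comparison, edgeR recovered 40% of genes changed 2-fold and 90.9% of those changed 4-fold, with 12 false calls among 19631 genes. DESeq2 recovered 52% and 93%, with 31 false calls among 19971 genes. Replicate numbers were not treated as pairs.

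The members, the 8 pathway lists, the 12 marker lists and the tests were chosen with earlier results of these data known. Named genes were all members, up to 4 called genes per pathway list by smallest p, a fixed set of related genes, and the 3 genes most correlated with Cdsn, Dsc3 and Tgm3. Correlations used log2 CPM after TMM scaling, with prior count 2.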

Additional observations from a re-analysis of the deposited data

How the results depend on the processing

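Under the 12 alternatives that kept all libraries, 5 members were called higher and 0 lower. Of all genes, these fits called 434 (limma-voom) to 1771 (limma-trend on log2(CPM + 1)) higher, both of 19971. They called 22 (Krt5 and Krt14 scaling) to 406 (DESeq2) lower. With 1 library left out the count of members called higher was 0 to 5 (1 without WT 2, 0 without WT 3), and 0 were called lower. Of all genes, 45 (without WT 3) to 713 (without WT 1) were then called higher. The count past the thresholds of the study, 1 with TMM scaling, was 5 with library size only, with Krt5 and Krt14 scaling and with limma-trend on log2(CPM + 0.1), 4 with limma-trend on log2(CPM + 1), 3 with DESeq2 and without a low-count filter, 2 with the replicate number as a block, 0 with upper quartile scaling and limma-voom, and 0 to 0 with 1 library left out. Over all genes, 58 were past these thresholds with TMM scaling, 304 with library size only, 699 with Krt5 and Krt14 scaling, 329 and 283 with limma-trend (pseudocounts 0.1 and 1), 377 with DESeq2, 356 without a filter, 99 with the block, 48 with upper quartile scaling, 22 with limma-voom and 1 to 46 with 1 library left out. The log2 fold change of Dsg3 turned to 0.39 with Krt5 and Krt14 scaling and to 0.018 and 0.019 with limma-trend (pseudocounts 1 and 0.1), that of Tgm3 to 0.12 with Krt5 and Krt14 scaling, and that of Dsc3 to -0.013 without TSK 1 (-0.013 to 0.47 over the fits with 1 library left out). None of these reversed values was called. The cause was not tested. The median log2 fold change of all genes moved to 0.25 with library size only, 0.64 with Krt5 and Krt14 scaling, and 0.20 and 0.25 with limma-trend (pseudocounts 1 and 0.1). DESeq2 called 3 adherens and tight junction genes, 3 other kallikrein-related peptidases and 4 keratinocyte transcription factors higher, where edgeR called 1, 1 and 2, and 1129 genes in all against 542. Deviations of libraries with the same number correlated at 0.01, 0.17 and -0.09. These values cannot show whether mice of the same number shared a litter or batch. The block changed no member's call at an adjusted p below 0.05. With 3 mice against 3, a permutation test cannot go below 0.1. At this size edgeR found 40% of 2-fold changes in simulated counts and DESeq2 52%, with 12 and 31 false calls.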
